A study of Mus musculus with 3 samples.

Results

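The CAP-D3 peaks described here lie in the 123 megabases of the mouse autosomes other than chromosome 11 in which called peaks were most crowded. Autosomes were cut into bins of 1 Mb counted from position 0, chromosome 11 was left out, and a bin was selected on the summed number of peak midpoints of both genotypes, which had to be 16 or more. The members are the 2488 peaks in these bins, of 14632 in both lists (17.004%), with 1413 from the Rb+/+ list of 8195 and 1075 from the RbΔL/ΔL list of 6437. Because peak counts chose the bins, the high counts themselves are a description and carry no test.

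Peaks came from ChIP-seq of primary mouse embryonic fibroblasts that were proliferating at passage 4, with 1 CAP-D3 library from Rb+/+ cells and 1 from RbΔL/ΔL cells, and no values of the input DNA control were analysed here. RbΔL encodes a retinoblastoma protein whose LXCXE-binding cleft is mutated, and the RbΔL/ΔL cells carry this allele on both copies. How many embryos gave the cells is not stated in the labels, and since each genotype has 1 library, genotypes could not be tested against each other. Intervals are at 95% and treat peaks as independent. Neighbouring peaks are not, so the intervals cover counting error only. Read depth behind the lists is unknown.

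CAP-D3 is a regulatory subunit of condensin II, a ring-shaped complex of SMC ATPases and accessory proteins. Condensin II is present in the nucleus throughout the cell cycle, and it shortens and stiffens chromosomes as cells enter mitosis. The retinoblastoma protein is best known as a repressor of E2F-driven cell cycle genes, and its LXCXE-binding cleft is used by several chromatin regulators. It also recruits condensin II to chromatin, and the study's title names a complex of RB, E2F1 and condensin II. How strongly condensin II sites gather in particular stretches of a chromosome is a question that a single list of peaks can describe but not explain.

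The 123 dense bins were 5.33% of the 2306 bins examined (those from 3 Mb of each chromosome on), and they held 18.8% of the peaks in all of these bins. A bin held a median of 4 peaks (quartiles 2 and 8), and 192 bins held none. The dense bins held a median of 19, with 65 bins at 16 to 19 peaks and 58 at 20 or more. Only 7 reached 30, and the fullest held 43. Counts fell off gradually across the threshold, with 34 bins at 14 peaks and 23 at 15 just outside it, and 21 bins at 16 and 21 at 17 just inside. No break in the counts separated the dense bins from the rest.

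**Figure D1:**
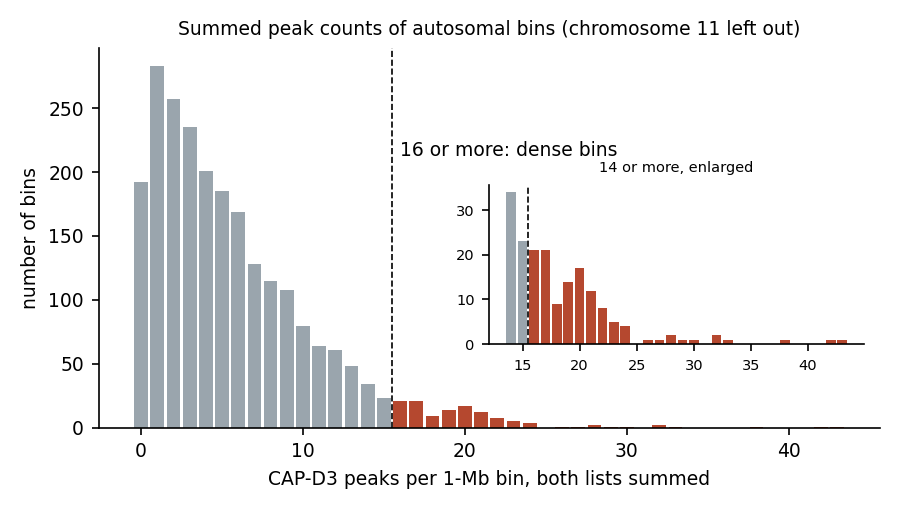
Number of 1-Mb autosomal bins (vertical axis) by their summed CAP-D3 peak count in both lists (horizontal axis), with bins of 16 or more in red and the range from 14 upward enlarged in the inset. Counts run without a gap through the threshold, from 23 bins at 15 peaks to 21 bins at 16, and a few bins stand far to the right, up to 43 peaks.

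The fullest bin lay on chromosome 19 at 5 to 6 Mb (mm9, chr19:5000001-6000000), with 26 Rb+/+ and 17 RbΔL/ΔL peaks. Chromosome 10 held the next 2, side by side, with 27 and 15 peaks at 79 to 80 Mb and 17 and 21 peaks at 80 to 81 Mb. These 3 bins were the only ones with more than 33 peaks. Chromosome 7 followed with 19 Rb+/+ and 14 RbΔL/ΔL peaks at 52 to 53 Mb, and with 19 and 13 at 134 to 135 Mb. On chromosome 8 at 124 to 125 Mb both lists held 16 peaks. Chromosome 2 at 167 to 168 Mb held 13 Rb+/+ and 17 RbΔL/ΔL peaks. The last 3 of the 10 fullest bins lay on chromosome 9 at 44 to 45 Mb (15 and 14 peaks), on chromosome 5 at 137 to 138 Mb (20 and 8) and on chromosome 19 at 4 to 5 Mb (15 and 13). Among these 10 bins the Rb+/+ list was ahead in 7, level in 1 and behind in 2.

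All 18 chromosomes examined had at least 1 dense bin, in very different numbers. Dense bins took up 11.9% of the bins of chromosome 15 (12 of 101, interval 6.29 to 19.8%) and 11.9% of those of chromosome 19 (7 of 59, interval 4.91 to 22.9%). They held 37.2% of all peaks on chromosome 15 and 34.9% on chromosome 19. At the other end, chromosome 13 had 1 dense bin among 118 (0.847%, interval 0.0215 to 4.63%), with 3.09% of that chromosome's peaks. Chromosome 16 had 2 among 96 (2.08%, interval 0.253 to 7.32%). Chromosome 5 had the largest number among these 18, 13 of 150, followed by chromosome 15 and then by chromosome 9 with 11 of 122. The interval of chromosome 13 lay below those of chromosomes 5, 15 and 19, and the intervals of every other pair of chromosomes overlapped.

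Of the dense bins, 47 stood in 20 runs of at least 2 adjacent dense bins, and 76 stood alone. Of the runs, 15 had 2 bins, 3 had 3 and 2 had 4. The run with the most peaks was on chromosome 19 from 4 to 8 Mb, where consecutive bins held 28, 43, 23 and 17 peaks, 65 from Rb+/+ and 46 from RbΔL/ΔL. The bins on either side of this run held 13 and 10 peaks, and after another bin below the threshold chromosome 19 had a further dense bin at 10 to 11 Mb with 16. The other run of 4 bins was on chromosome 15 from 76 to 80 Mb, with 24, 22, 18 and 16 peaks in order. It held 44 Rb+/+ and 36 RbΔL/ΔL peaks in all. The pair on chromosome 10 from 79 to 81 Mb held the same 44 and 36 in 2 bins. The run on chromosome 19 was thus fullest at 5 to 6 Mb, and in the one on chromosome 15 counts fell from each bin to the next.

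The 3 runs of 3 bins lay on chromosomes 3, 5 and 17. On chromosome 5 from 135 to 138 Mb the bins held 18, 22 and 28 peaks, 39 of them from Rb+/+ and 29 from RbΔL/ΔL. Along this run Rb+/+ peaks numbered 10, 9 and 20, and RbΔL/ΔL peaks 8, 13 and 8. The interval of the Rb+/+ share included the share over all bins (55.7%) in each of the 3. On chromosome 17 from 27 to 30 Mb each of the 3 bins held 19 peaks, with 36 from Rb+/+ and 21 from RbΔL/ΔL in all. On chromosome 3 from 87 to 90 Mb the bins held 16, 16 and 19, with 31 from Rb+/+ and 20 from RbΔL/ΔL.

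Bins around the dense ones were also fuller than the average bin. The mean over all bins was 3.19 Rb+/+ and 2.54 RbΔL/ΔL peaks. At 1 Mb below a dense bin the means were 6.26 and 4.80, and at 1 Mb above it 6.16 and 5.07. Some of these neighbours were dense themselves (22.1% and 21.95%, against 5.33% of all bins), and means without dense neighbours were not computed. At a distance of 3 Mb the means were 4.82 and 3.61 below and 4.54 and 3.52 above. By 9 Mb above they were 3.04 and 2.83, and 9 Mb below 3.44 and 2.74, near the averages, though at 10 Mb below they were 3.92 and 2.85. Counts of both lists declined with distance over several megabases on either side.

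**Figure D2:**
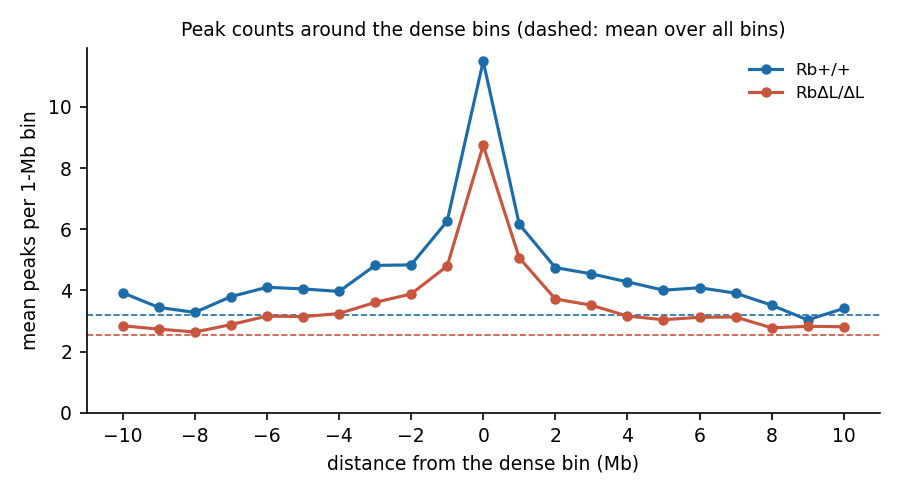
Mean number of peaks per 1-Mb bin (vertical axis) at each distance from the dense bins (horizontal axis, in Mb, negative towards lower coordinates), for Rb+/+ in blue and RbΔL/ΔL in red, with dashed lines at the mean over all bins. Both curves fall steeply within 1 Mb, from 11.5 and 8.74 peaks at the dense bins to between 4.80 and 6.26 beside them, and approach the dashed lines by about 9 Mb.

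Bins picked with one list were also crowded in the other list, which had no part in picking them. In the 113 bins with 10 or more Rb+/+ peaks, RbΔL/ΔL peaks numbered 7.50 per bin on average (interval 6.999 to 8.02), against 2.54 over all bins, a ratio of 2.96 (interval 2.76 to 3.16). Their RbΔL/ΔL counts ranged from 1 to 21 with a median of 7, and 110 of the 113 lay above the mean over all bins, as did 40.9% of all bins. In the 44 bins with 10 or more RbΔL/ΔL peaks, Rb+/+ peaks numbered 11.02 per bin (interval 10.1 to 12.05), against 3.19, a ratio of 3.46 (interval 3.15 to 3.78). Their Rb+/+ counts ranged from 2 to 27 with a median of 10, and 43 of the 44 were above the mean, against 35.7% of all bins. With overlapping peaks left out of both counts and bins picked anew, 64 and 18 bins qualified. Their ratios were 2.77 (interval 2.50 to 3.07) and 3.33 (interval 2.84 to 3.87), so peaks without an overlapping partner were crowded into the same megabases too. Some of these peaks lay beside a peak of the other list. Of the Rb+/+ members 24.2% had one within 1 kb and 19.2% overlapped one, and of the RbΔL/ΔL members 30.7% and 25.3%.

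Both genotypes contributed to the dense bins in nearly the proportion they had elsewhere. Rb+/+ peaks were 56.8% of the members (interval 54.8 to 58.8%) and 55.5% of the peaks in the other bins (5943 of 10714, interval 54.5 to 56.4%). The difference was 1.32 percentage points, with an interval from -0.846 to 3.48 that includes 0 (Newcombe's method). This interval moved above 0 in 4 of 8 alternatives, with the largest difference, 3.42 points (interval 0.733 to 6.08), when peaks scoring under 60 were left out. A site common to both lists adds a peak to each and so draws the share towards equal numbers. Among peaks without a partner the Rb+/+ share was 58.7% in dense bins and 56.3% in the other bins. That difference was 2.43 points (interval 0.00955 to 4.82). Rb+/+ counts ran from 5 to 27 per dense bin with a median of 11, and RbΔL/ΔL counts from 3 to 21 with a median of 8. In 76 dense bins each list held at least 8 peaks, and in 26 each held at least 10. More Rb+/+ than RbΔL/ΔL peaks were counted in 85 of the 123 dense bins (69.1%), equal numbers in 15 and fewer in 23. That share was 51.3% among all bins with a peak and 60.2% among the 533 bins with 8 to 15 peaks. Equal counts are more frequent where bins hold few peaks, and the shares were not corrected for this.

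Few single bins could be called as departing from this proportion. A bin was called unbalanced when the exact interval of its Rb+/+ share did not include the 55.7% found over all peaks in the 2306 bins. Of the dense bins, 2 were called on the Rb+/+ side (1.63%) and 0 on the RbΔL/ΔL side. Among the 656 bins with 8 or more peaks, dense bins included, 4 (0.61%) were called on each side. Intervals are narrower in fuller bins, which are therefore called more easily. They were still wide in dense bins. With 13 Rb+/+ and 4 RbΔL/ΔL peaks, chromosome 2 at 84 to 85 Mb was not called (76.5%, interval 50.1 to 93.2%). A bin that was not called may thus still differ from the overall proportion. These single-bin intervals were not adjusted for the number of bins. One of the 2 was on chromosome 9 at 59 to 60 Mb, with 15 Rb+/+ and 3 RbΔL/ΔL peaks (83.3%, interval 58.6 to 96.4%), and no peak there was common to both lists. The other was on chromosome 10 at 127 to 128 Mb, with 19 and 4 peaks (82.6%, interval 61.2 to 95.05%) and 1 site in common. The bin before it, at 126 to 127 Mb, held 9 Rb+/+ and 11 RbΔL/ΔL peaks, so the tilt did not extend over the pair. Chromosome 2 at 117 to 118 Mb came next, with 13 and 3 peaks (81.3%, interval 54.4 to 96.0%).

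On the RbΔL/ΔL side the lowest Rb+/+ share was 31.3% (interval 11.02 to 58.7%), from 5 Rb+/+ and 11 RbΔL/ΔL peaks on chromosome 15 at 99 to 100 Mb. Chromosome 4 held the next, with 6 and 12 peaks at 133 to 134 Mb (33.3%, interval 13.3 to 59.0%) and 6 and 11 at 148 to 149 Mb (35.3%, interval 14.2 to 61.7%). All 3 intervals included the proportion over all bins.

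**Figure D3:**
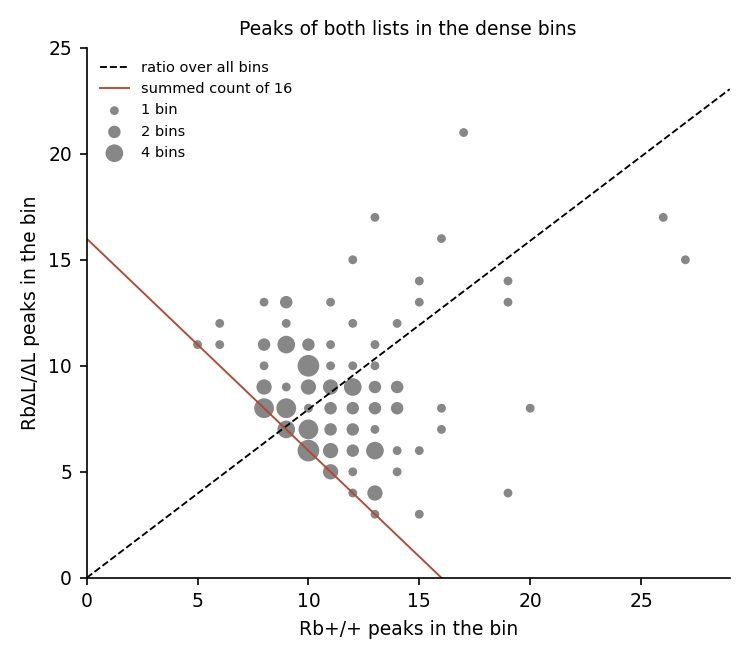
Number of RbΔL/ΔL peaks (vertical axis) against Rb+/+ peaks (horizontal axis) in each of the 123 dense bins, with the area of a point giving the number of bins at that position. The dashed line is the ratio over all bins and the red line the summed count of 16 below which no bin was taken. Most points lie around the dashed line, and the 3 fullest bins stand apart at 26 and 17, 27 and 15, and 17 and 21 peaks.

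Sites common to both genotypes made up a larger part of the members than of the other peaks. Among Rb+/+ members, 271 of 1413 (19.2%, interval 17.2 to 21.3%) shared 1 bp or more with a RbΔL/ΔL peak, against 11.6% of the 5943 Rb+/+ peaks in other bins, a difference of 7.57 percentage points (interval 5.43 to 9.85). Among RbΔL/ΔL members, 272 of 1075 (25.3%, interval 22.7 to 28.0%) overlapped a Rb+/+ peak, against 14.5% of 4771, a difference of 10.8 points (interval 8.11 to 13.7). A common site adds a peak to both lists and so helps its bin reach the threshold. When such sites were counted once in choosing bins, 95 bins were left and the differences were 5.73 points (interval 3.46 to 8.19) and 7.90 points (interval 5.04 to 10.96).

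Sharing was higher in fuller bins, though not at every step. In bins of 1 to 3 peaks, 4.18% of Rb+/+ and 4.63% of RbΔL/ΔL peaks were shared. The shares were 12.03% and 15.4% in bins of 8 to 11 peaks and 17.6% and 23.3% in bins of 12 to 15. In dense bins of 16 to 19 peaks they were 15.5% (interval 12.8 to 18.4%) and 22.6% (interval 18.8 to 26.7%), and in bins of 20 or more 22.4% (interval 19.5 to 25.6%) and 27.4% (interval 23.9 to 31.1%). The shares thus did not rise at the threshold, from bins of 12 to 15 peaks to those of 16 to 19. A shared site counts in both lists, so it also lifts the count of its bin. In 283 bins a peak stood alone and could have a partner only across a bin edge. Low sharing in the least full bins thus follows in part from how bins were classed. A denser list of the other genotype also offers more peaks to meet by position alone, and its part in these shares was not tested.

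Within bands of score, members were shared more often than other peaks in both lists below 100, and in the RbΔL/ΔL list also between 100 and 200. Shared sites counted in both lists when these members were chosen, which favours sharing among them in every band. The bands were not recomputed with such sites counted once. The score is the value that the authors' peak caller gave each peak, and it ranks peaks within a list only. Among members with scores of 60 to 100, 11.1% of Rb+/+ and 17.7% of RbΔL/ΔL peaks were shared, against 5.65% and 9.45% elsewhere, differences of 5.45 points (interval 3.08 to 8.18) and 8.29 points (interval 5.15 to 11.8). Under 60 the differences were 2.28 points (interval 0.488 to 4.67) in Rb+/+ and 2.48 points (interval 0.0309 to 5.89) in RbΔL/ΔL. Between 100 and 200, 51.8% of Rb+/+ members and 48.2% of the other peaks were shared, a difference of 3.54 points whose interval (-6.01 to 13.0) includes 0. In RbΔL/ΔL the corresponding shares were 65.4% and 53.4%, a difference of 12.001 points (interval 2.21 to 21.1). At 200 or more, 97 of 98 Rb+/+ members and all 66 RbΔL/ΔL members had a partner, as did 95.4% and 99.4% of the peaks elsewhere, so little room for a difference was left.

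**Figure D4:**
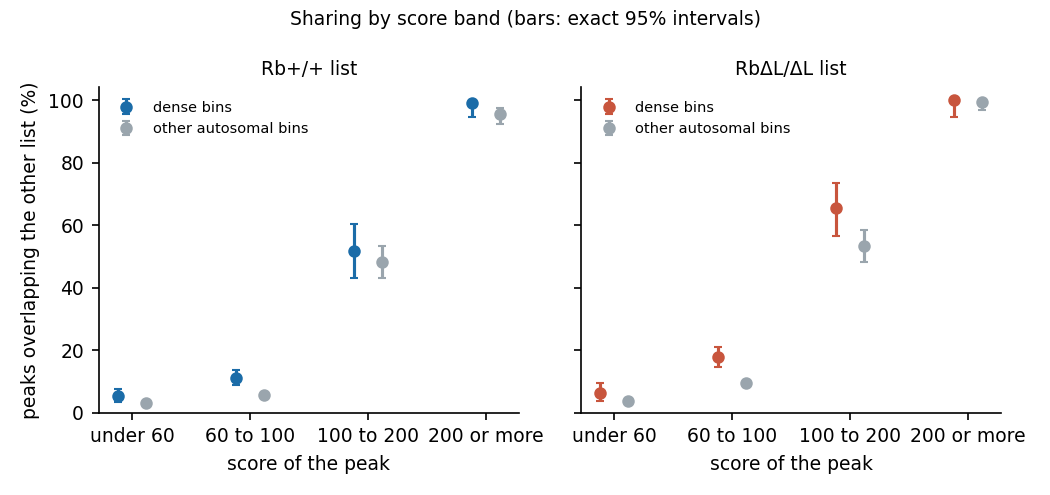
Percentage of peaks that overlap a peak of the other list (vertical axis) by score band (horizontal axis), for peaks in dense bins (coloured) and in other autosomal bins (grey), with exact 95% intervals as bars. Members lie above the other peaks in both bands under 100 and reach 98.98% in Rb+/+ and 100% in RbΔL/ΔL at 200 or more, where the grey points are also above 95%. Shared sites counted in both lists when the dense bins were chosen.

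Common sites were spread over the dense bins. A dense bin held a median of 2 shared peaks of each list and at most 8, and 12 bins held none. The bin with 8 was on chromosome 9 at 3 to 4 Mb, and it differed from the rest in several ways. Of its 9 Rb+/+ and 11 RbΔL/ΔL peaks, 19 fell in a single window of 100 kb at the start of the assembled sequence, beside the unassembled centromeric satellite DNA. The remaining stretch of this bin had 1 peak, after an empty 784 kb. Without this bin, the difference in sharing was 7.12 points in Rb+/+ and 10.3 points in RbΔL/ΔL.

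A score of 100 or more was more frequent among members than among other peaks. The choice of bins did not use scores directly, but shared sites count in both lists and are the higher-scoring ones (median 137 against 62.3 for unshared Rb+/+ members), so it favours high scores. Scores of 100 or more were found for 239 Rb+/+ members (16.9%, interval 14.99 to 18.97%) against 11.4% of the other Rb+/+ peaks, a difference of 5.47 points (interval 3.43 to 7.66). Among RbΔL/ΔL peaks they were found for 196 members (18.2%, interval 15.97 to 20.7%) against 11.9%, a difference of 6.29 points (interval 3.89 to 8.86). Median scores were close, at 64.2 for members and 61.6 for other peaks in Rb+/+ and at 66.4 and 65.7 in RbΔL/ΔL. With shared sites counted once in choosing bins, an alternative added after seeing the data, the differences were 4.03 points (interval 1.86 to 6.39) and 5.44 points (interval 2.88 to 8.25). The strong members were largely the shared ones, and so were strong peaks elsewhere. At 100 or more, 71.1% of Rb+/+ members and 67.9% of other Rb+/+ peaks were shared, a difference of 3.19 points (interval -3.75 to 9.66). In RbΔL/ΔL the shares were 77.0% and 67.2%, a difference of 9.85 points (interval 2.46 to 16.5). Among peaks without a partner, the difference at a score of 100 was 1.89 points (interval 0.526 to 3.51) in Rb+/+ and 1.02 points (interval -0.529 to 2.93) in RbΔL/ΔL. In bins of 1 to 3 peaks, 6.33% of Rb+/+ and 7.87% of RbΔL/ΔL peaks were at 100 or more. The shares were 16.3% and 17.8% in bins of 12 to 15 peaks, which are not dense bins. In dense bins they were 14.4% and 14.5% at 16 to 19 peaks and 19.1% and 21.0% at 20 or more. Strong peaks thus did not become more frequent at every step, and the bins just below the threshold were not poorer in them than those just above.

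Most dense bins held strong peaks of both genotypes, but in small numbers. A dense bin had a median of 2 Rb+/+ and 1 RbΔL/ΔL peaks at 100 or more, with a highest number of 6 in each list, and 8 bins had none in either. How many strong peaks a bin holds depends on the counts that chose the bins, so these numbers are a description. Among the top 500 peaks by score in either list, 115 Rb+/+ and 122 RbΔL/ΔL peaks were members (23.0% and 24.4%), beside 17.2% and 16.7% over the whole lists. Members were also slightly wider, with a median width in Rb+/+ of 439 bp for members and 426 bp for other peaks, and in RbΔL/ΔL of 421 and 412 bp.

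The strongest members were the same sites in both lists for the most part. The highest-scoring Rb+/+ member lay on chromosome 5 at chr5:124356950-124357640 (score 1768.58, rank 2 of its list), and its partner at 124357054 to 124357417 scored 916.18 in RbΔL/ΔL (rank 10). On chromosome 17 a Rb+/+ peak at 28828014 to 28828493 (score 1431.44, rank 7) met a RbΔL/ΔL peak at 28828050 to 28828641 (score 727.57, rank 19), in the middle bin of the run of 3. On chromosome 8 a Rb+/+ peak of 1301 bp at 124473763 to 124475063 (score 1399.27, rank 8) enclosed the highest-scoring RbΔL/ΔL member, 474 bp at 124474304 to 124474777 (score 1027.05, rank 6). The chromosome 5 site at 136253894 to 136254778 ranked 12 in Rb+/+ and 8 in RbΔL/ΔL. On chromosome 9, the site at 108418951 to 108419577 ranked 13 and 20. Of the 5 highest-ranked shared members of each list, 4 were common to both sets. The fifth of the RbΔL/ΔL set lay in the crowded window of chromosome 9 at 3023098 to 3024816 (score 748.61, rank 18), whose Rb+/+ partner ranked 65.

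The highest peaks of the 5 fullest bins ranked from 35 to 314 in Rb+/+ and from 157 to 420 in RbΔL/ΔL. In the fullest bin, on chromosome 19, the highest Rb+/+ peak lay at 5041134 to 5041471 (score 327.2, rank 222) and overlapped the highest RbΔL/ΔL peak at 5041182 to 5041478 (score 204.99, rank 255). On chromosome 10 at 79 to 80 Mb the highest peaks also overlapped, at 79896398 to 79897164 in Rb+/+ (score 746.48, rank 35) and 79896566 to 79897276 in RbΔL/ΔL (score 272.05, rank 157). In the bin after it they lay at 80363601 to 80363996 (score 257.16, rank 314) and 80363304 to 80363999 (score 150.58, rank 401). On chromosome 7 at 52 to 53 Mb the highest peaks were different sites, 52973040 to 52973720 in Rb+/+ (score 309.91, rank 243) and 52379571 to 52380166 in RbΔL/ΔL (score 144.77, rank 420). At 134 to 135 Mb of that chromosome both lists had their highest peak at the same site, 134655344 to 134655867 in Rb+/+ (score 491.33, rank 103) and 134655302 to 134655656 in RbΔL/ΔL (score 243.72, rank 200).

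Members without a partner reached only moderate scores. The highest in Rb+/+ lay on chromosome 8 at 73062674 to 73063664 (score 289.08, rank 260), with the nearest RbΔL/ΔL peak 15.5 kb away. Next in score were peaks at 152512341 to 152512765 of chromosome 2 (193.61) and at 26101621 to 26102253 of chromosome 7 (191.84), with the nearest RbΔL/ΔL peaks at 105 and 49.1 kb. In RbΔL/ΔL the highest were on chromosome 12 at 88729022 to 88729760 (score 165.49), on chromosome 5 at 130731118 to 130731620 (score 154.06) and on chromosome 9 at 3021996 to 3022770 (score 151.02). Their nearest Rb+/+ peaks were 48.5, 83.4 and 0.32 kb away. A site without a partner had no called peak in the other list, and its signal there is not known.

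Within the dense bins, peaks of a list lay a median of 22.7 kb apart in Rb+/+ (quartiles 7.08 and 54.0 kb) and 33.3 kb in RbΔL/ΔL (quartiles 10.1 and 70.3 kb), measured from edge to edge to the nearest peak of the same list. In the other bins the medians were 76.3 and 104 kb. Another peak of the list within 10 kb was found for 442 Rb+/+ members (31.3%) and 265 RbΔL/ΔL members (24.7%), against 13.5% and 8.72% elsewhere. Short gaps follow from the high counts that chose the bins, so these values are a description. Members without a partner had the nearest peak of the other list at a median of 31.4 kb for Rb+/+ and 24.6 kb for RbΔL/ΔL, against 97.0 and 86.1 kb in other bins.

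**Figure D5:**
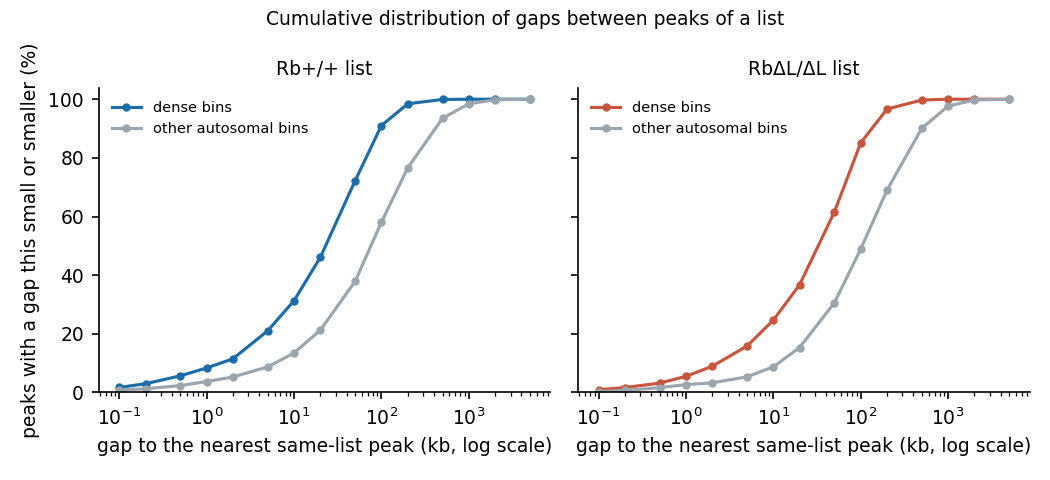
Percentage of peaks whose nearest peak of the same list lies within a given gap (vertical axis) against that gap in kb on a log scale (horizontal axis), for dense bins (coloured) and other autosomal bins (grey). The coloured curves lie to the left throughout most of the range, with 31.3% against 13.5% of Rb+/+ and 24.7% against 8.72% of RbΔL/ΔL peaks at 10 kb.

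Most dense bins were filled along their length and not from a single cluster. Cut into 10 windows of 100 kb, a dense bin had peaks of either list in a median of 8 windows. There were 68 bins with peaks in 8 or more windows and 6 with peaks in all 10. For each list alone the median was 6 windows. The number of windows reached depends on the counts that chose the bins, so these values are a description. The fullest window held a median of 5 peaks of both lists together. The longest stretch between neighbouring midpoints in a bin was a median of 208 kb, and the shortest such stretch was 82.6 kb, on chromosome 19 at 53 to 54 Mb. Stretches to the bin edges were not counted, and the peaks of that bin spanned only 624 kb, in 7 windows. In 8 bins all peaks lay in 5 or fewer windows. Besides the bin of chromosome 9 at 3 to 4 Mb with 2 windows, these included chromosome 5 at 121 to 122 Mb and at 143 to 144 Mb with 4 windows each.

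Tight groups of peaks were seen in both lists. Linking members of a list that lay within 10 kb of the next gave 191 groups in 102 dense bins for Rb+/+ and 118 groups in 72 bins for RbΔL/ΔL. Most were pairs (152 and 98), and 14 Rb+/+ and 5 RbΔL/ΔL groups had 4 peaks or more. The largest Rb+/+ group had 7 peaks in 19.4 kb on chromosome 5 (137532879 to 137552321), with scores from 51.5 to 98.3 and 1 RbΔL/ΔL peak within it. Chromosome 10 had 2 Rb+/+ groups of 5 peaks in the bin at 79 to 80 Mb (79533964 to 79551821 and 79611986 to 79627752), with scores of at most 71.41 and 64.24 and with 1 and 0 RbΔL/ΔL peaks inside. On chromosome 5 at 143 to 144 Mb, a group of 5 Rb+/+ peaks (143656585 to 143682860) and a group of 4 (143572471 to 143585575) made up 9 of the bin's 13 Rb+/+ peaks. They contained 0 and 1 of its 4 RbΔL/ΔL peaks. In these groups most peaks were of 1 list, and their median scores lay between 54.28 and 70.995. Other Rb+/+ groups of 4 held a strong peak and more RbΔL/ΔL peaks, such as the one on chromosome 13 (23515534 to 23530722), with scores up to 366.47 and 2 RbΔL/ΔL peaks inside, and the one on chromosome 15 (76528009 to 76545898), with scores up to 251.06 and 3.

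Groups in the RbΔL/ΔL list, which is the shorter one, were fewer. The largest had 6 peaks on chromosome 9 (3021996 to 3036429), inside the crowded window, with scores up to 748.61 and 4 Rb+/+ peaks within it. A group of 5 lay on chromosome 8 (73284900 to 73307834), with scores from 58.6 to 194.19, a median of 61.56 and 1 Rb+/+ peak inside. That Rb+/+ peak was the highest-scoring of its list in the bin (372.47) and was shared. A group of 4 in only 5.56 kb lay on chromosome 9 (44290426 to 44295981), with scores from 58.43 to 83.61 and no Rb+/+ peak. In the fullest bin, on chromosome 19, 4 RbΔL/ΔL peaks at 5714201 to 5731948 had 1 Rb+/+ peak among them. That bin also held Rb+/+ groups of 4 peaks at 5031618 to 5059535, with 3 RbΔL/ΔL peaks inside, and at 5804425 to 5817994, with 1.

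Coordinates are given 1-based in mm9. Gene positions were available here for a later build alone, so genes, exons and introns at these positions were not determined, and no sequence of the peaks is given.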

How the data were processed

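CAP-D3 ChIP libraries of Rb+/+ and RbΔL/ΔL fibroblasts gave 1 deposited peak list each. Bowtie 1.0, MACS 1.4.2 and the mm9 build are named in the submitters' processing notes; settings, the control used and duplicate handling are not given in those sources, and they can affect weak peaks and repeats most. The deposited score of each peak came from the authors' peak caller, its meaning is not stated, and its lowest value is 50.02. Positions were checked against mm9 lengths (GenomeInfoDb 1.38.1), and 0 peaks passed a chromosome end. Python 3.11.15, numpy 2.4.6, pandas 2.3.3, scipy 1.17.1 and matplotlib 3.10.9 were used.

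Peaks were binned by midpoint. Shares have exact binomial (Clopper-Pearson) intervals, differences Newcombe intervals and mean counts exact Poisson intervals, all at 95%. Code for binning, overlap and gaps was tested on simulated data. Bins named are the 10 fullest, those in runs of 3 or more, and the 3 with the highest and lowest Rb+/+ share. Peaks named are the top peak of each list in the 5 fullest bins, the 5 strongest shared and 3 strongest unshared members per list. Bins and groups singled out for sharing, windows or groups of 4 or more were chosen after their values were seen. Members, bins and comparisons were chosen with earlier results of these data known.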

Additional observations from a re-analysis of the deposited data

How the results depend on the processing

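Over 11 results, 71 alternative values were computed; 42 were close to the value in the report and 29 were not. The sign changed in 1, the genotype balance at a summed count of at least 20, where both intervals include 0. Close meant within 1.5 times for numbers of bins and runs and within the 95% interval otherwise. Leaving out 3 to 4 Mb of chromosome 9, and counting shared sites once for the scores, were chosen after seeing the data. All 7 values of the former and both of the latter stayed close.

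A summed count of at least 12 gave 289 bins in 60 runs, and one of at least 20 gave 58 bins in 10 runs. Starting bins at 0.5 Mb gave 138 bins, which held 1638 of the 2488 members. With chromosome 11 included there were 144 bins, 21 of them on that chromosome. The Rb+/+ share of peaks in the bins of at least 20, minus that elsewhere, was -0.708 points, with an interval including 0. Its difference had an interval above 0 at a count of 12 (1.81 points), at a score of 60 (3.42), with equal list lengths (2.52) and for unshared peaks (2.43).

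The difference in sharing was 10.5 points for Rb+/+ and 13.7 for RbΔL/ΔL with bins from 0.5 Mb, 10.4 for Rb+/+ at a count of 20, 7.90 for RbΔL/ΔL with shared sites counted once, and 11.1 and 14.6 for peaks within 1 kb. For Rb+/+ peaks of score 100 or more it was 3.19, with an interval including 0. Peaks within 10 kb of another were 25.9% and 19.9% at a count of 12, 20.9% and 20.6% at a score of 60, 29.97% for RbΔL/ΔL at a count of 20 and 26.9% for Rb+/+ with equal list lengths. Within 1 kb they were 8.35% and 5.49%, and within 50 kb 72.2% and 61.6%, as the distance sets. The difference in strong peaks was 2.16 and 2.56 points at a score of 200, and 1.89 and 1.02 for unshared peaks. The ratios in bins picked with the other list were 2.59 and 3.07 at 8 or more peaks and 3.33 and 4.27 at 12 or more. Apart from settings that redefine the measure, the cause of these shifts was not tested. No paired analysis was possible because there is a single library per genotype, and none could be left out. With the read depth unknown, the absence of a weak peak from a list cannot be weighed.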
